A study of Homo sapiens with 16 samples.

Results

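Long noncoding RNAs with a LINC symbol were followed across 4 conditions of a human B cell line. The members are the gene entries whose symbol is LINC followed by digits only and whose mean over all 16 libraries was at least 10 normalized counts. A normalized count is a gene's reads in a library divided by 1 scaling factor for that library. Of 58051 gene entries, 2225 had such a symbol, 758 of these had a read in at least 1 library and 150 met the mean threshold. The 150 entries carry 149 symbols, because LINC01238 stands for 2 identifiers. Just inside the threshold lay LINC00562 with a mean of 10.174 and LINC02575 with 10.289, and just outside lay LINC02846 with 9.975 and LINC02709 with 9.969. The members were thus chosen by measured levels, the mean over all libraries, so an RNA that is high in some groups only could enter through those groups. Of the 150, 106 had a mean of at least 10 in each of the 4 groups, 24 reached it in both medium MYC groups only and 12 in both high MYC groups only. A further 32 LINC entries reached a mean of 10 in some group but not over all libraries, and they are not members.

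LINC symbols are given to long intergenic noncoding RNAs, transcripts made by RNA polymerase II, usually spliced and polyadenylated, that lie between protein-coding genes and have no assigned function at naming. Many are read from promoters that lie close to, or are shared with, those of neighbouring genes, and many differ sharply in level from one cell type to another. MYC is a transcription factor that pairs with MAX and binds the E-box CACGTG, and it also alters the output of a large share of active promoters in B cells.

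RNA came from P493-6, an immortalised human B cell line that carries a doxycycline-repressible MYC transgene and a form of the Epstein-Barr virus factor EBNA2 that needs oestrogen to act. There were 4 groups of 4 libraries, with replicates numbered in the titles. High MYC cultures stayed in ordinary medium. Medium MYC cultures were given doxycycline (0.1 µg/mL) together with β-estradiol (1 µM), started 24 h ahead of the treatment. At each MYC level, cells were then kept for 24 h with IMP1088 at 100 nM, which blocks the enzymes NMT1 and NMT2 that attach myristate to proteins, or with its solvent DMSO as the control. Lower MYC, doxycycline and estradiol always came together, so their effects cannot be told apart. All 16 libraries come from a single cell line, and the labels do not say whether replicates were separate cultures, so p-values measure the spread between these libraries only.

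The MYC transcript followed the labels, with 29693.3 to 34375.5 normalized counts in the high MYC controls and 904.1 to 1022.2 in the medium MYC controls. With the inhibitor it lay at 46842.7 to 48049.2 and at 1327.5 to 1444.4, respectively. Libraries held 8755296 to 13858534 reads assigned to genes, and the members took 0.104% to 0.121% of these reads in each. Of 8 B cell markers, all were detected, and their summed level was 27541.8 to 27727.4 in high MYC controls, 22477.7 to 23442.5 with inhibitor at high MYC, 45845.8 to 46687.3 in medium MYC controls and 41058.5 to 42564.0 with inhibitor at medium MYC. Summed T cell, myeloid and epithelial markers, 4 of each, never passed 111.8, and KRT18 and HBB were at 0 in every library. Single markers of other cell types differed between MYC levels. The epithelial cadherin gene CDH1 had means of 0.19 and 55.43 normalized counts in high and medium MYC controls (0.27 and 80.59 with inhibitor), and EPCAM went the other way, from 62.06 to 13.09 (70.58 and 18.21 with inhibitor). HBA1, an alpha globin gene, had no read at high MYC and means of 1.48 and 4.92 at medium MYC without and with inhibitor. The B cell marker sum moved with both MYC level and inhibitor. Its largest part was MS4A1, with means of 11651.76 and 22638.69 in high and medium MYC controls. CD79A (3095.58 and 2854.1) and CD79B (1573.91 and 1464.04) were lower at medium MYC, and the other B cell markers were higher. The part of these markers in the changes of the LINC RNAs was not tested.

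The label intergenic holds for most members but not for all. In GENCODE release 29, 111 of the 150 are typed as lincRNA. The other 39 include 16 processed transcripts, 9 antisense RNAs, 6 transcribed unprocessed pseudogenes and 2 entries typed as protein-coding, LINC03040 and LINC02693. Exons of 53 members overlap exons of another gene, 25 on the same strand and 37 on the opposite one, and 22 members lie in or across the body of a protein-coding gene. This leaves 89 with no such overlap. How the authors' counting used strand is not given in the sources used here, so reads of overlapping exons may be split between genes. The 150 members lie on 23 chromosomes, 22 of them on chromosome 1. The median gap to the nearest protein-coding gene was 12250 bp; 35 members lay within 1 kb of one and 18 beyond 100 kb. LINC00662 had the widest gap, 1411381 bp.

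Promoter windows were available in a RefSeq table (GRCh38.p14) for 94 of the member symbols, each from 250 bases before to 50 bases after an annotated start. The E-box CACGTG, which reads the same on both strands, occurred in 7.26% of all 35116 windows of this length and in 10 of the 94 members (10.6%). The 94 members had 106 windows, and a member counts if any of its windows holds the motif. A share of members is thus not the same measure as a share of windows, here and for the motifs below. Among members with a window, it occurred in 1 of 32 that rose from high to medium MYC in controls, in 6 of 37 that fell and in 3 of 25 that passed in neither direction. The 7 members below are those called between MYC levels that hold the motif, shown as stretches of 60 bases 5′ to 3′ on the gene's strand with the E-box in capitals. LINC01588 is the member of the 7 that rose, and the other 6 fell.
LINC00426: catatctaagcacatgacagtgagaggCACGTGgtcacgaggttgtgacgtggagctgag
LINC01126: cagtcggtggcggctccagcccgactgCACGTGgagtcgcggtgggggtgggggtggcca
LINC01588: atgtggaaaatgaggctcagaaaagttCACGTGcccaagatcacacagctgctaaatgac
LINC01970: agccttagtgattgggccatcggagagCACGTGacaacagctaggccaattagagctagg
LINC01976: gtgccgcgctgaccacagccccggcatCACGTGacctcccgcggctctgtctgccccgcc
LINC02642: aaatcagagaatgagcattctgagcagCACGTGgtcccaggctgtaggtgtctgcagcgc
LINC03034: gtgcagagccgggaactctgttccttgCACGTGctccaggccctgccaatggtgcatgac

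The stretches lie on GRCh38.p14 at the following places: LINC00426 at chr13:30373956-30374015 (minus strand), LINC01126 at chr2:43227145-43227204 (plus strand), LINC01588 at chr14:49993254-49993313 (minus strand), LINC01970 at chr17:82292821-82292880 (minus strand), LINC01976 at chr17:43938160-43938219 (plus strand), LINC02642 at chr10:7472231-7472290 (minus strand) and LINC03034 at chr15:31231005-31231064 (minus strand). The E-box begins 39 bases before the RefSeq start in LINC01126 and LINC01970 and 74 bases before it in LINC00426 and LINC01976. In LINC01588, LINC03034 and LINC02642 it begins 152 to 223 bases before that start. The RefSeq start can differ from the GENCODE start in the gene positions given for members. The log2 change from high to medium MYC in controls was -3.57 for LINC01976, -1.34 for LINC02642, -0.99 for LINC00426, -0.96 for LINC03034, -0.87 for LINC01970, -0.56 for LINC01126 and 1.63 for LINC01588. A match of letters is a description and not a bound site.

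Whole windows are shown for the 6 members named for their change between MYC levels in controls that have 1 start in the table. LINC01094 rose most of all, LINC02384, LINC00158 and LINC00511 also rose, and LINC00957 and LINC00235 fell. Capitals mark the TATA box TATAAA, found on either strand in 11.5% of all windows and in 16 of the 94 members (17.0%), or TGGGAA, the core bound by RBPJ, the DNA-binding partner of EBNA2, found on either strand in 24.0% of all windows and in 26 of the 94 members (27.7%). TGGGAA appears as TTCCCA and TATAAA as TTTATA where they lie on the other strand. The windows are chr4:78645744-78646043 and chr7:44038799-44039098 on the plus strand for LINC01094 and LINC00957. Those of LINC02384, LINC00158, LINC00511 and LINC00235 are chr12:68451435-68451734, chr21:25431652-25431951, chr17:72640423-72640722 and chr16:527358-527657, all on the minus strand.
LINC01094: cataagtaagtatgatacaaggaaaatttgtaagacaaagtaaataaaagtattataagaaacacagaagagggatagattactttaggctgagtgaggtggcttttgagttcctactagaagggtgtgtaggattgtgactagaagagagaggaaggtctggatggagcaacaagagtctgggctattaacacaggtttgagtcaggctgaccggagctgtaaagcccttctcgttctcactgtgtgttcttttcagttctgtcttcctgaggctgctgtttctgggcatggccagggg
LINC02384: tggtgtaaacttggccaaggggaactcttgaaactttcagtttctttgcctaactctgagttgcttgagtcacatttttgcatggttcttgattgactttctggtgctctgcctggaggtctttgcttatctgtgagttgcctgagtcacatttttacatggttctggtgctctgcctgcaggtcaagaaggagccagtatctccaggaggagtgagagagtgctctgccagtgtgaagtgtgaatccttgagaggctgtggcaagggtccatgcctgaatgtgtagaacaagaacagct
LINC00158: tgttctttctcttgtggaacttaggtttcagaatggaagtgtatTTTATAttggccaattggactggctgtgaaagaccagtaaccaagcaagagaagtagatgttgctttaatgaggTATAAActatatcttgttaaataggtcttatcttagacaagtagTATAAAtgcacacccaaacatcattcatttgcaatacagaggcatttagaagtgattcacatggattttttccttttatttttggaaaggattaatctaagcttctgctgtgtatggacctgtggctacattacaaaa
LINC00511: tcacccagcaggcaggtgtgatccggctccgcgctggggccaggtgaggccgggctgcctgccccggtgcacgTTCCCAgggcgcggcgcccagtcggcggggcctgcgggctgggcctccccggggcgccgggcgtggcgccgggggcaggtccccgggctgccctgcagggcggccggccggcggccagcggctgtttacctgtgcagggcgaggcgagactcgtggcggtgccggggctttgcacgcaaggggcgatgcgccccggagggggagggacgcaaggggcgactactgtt
LINC00957: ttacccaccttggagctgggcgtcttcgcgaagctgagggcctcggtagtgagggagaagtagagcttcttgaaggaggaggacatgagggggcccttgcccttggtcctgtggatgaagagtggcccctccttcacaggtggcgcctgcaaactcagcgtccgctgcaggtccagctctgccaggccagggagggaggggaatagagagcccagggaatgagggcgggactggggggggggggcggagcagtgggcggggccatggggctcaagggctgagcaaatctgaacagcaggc
LINC00235: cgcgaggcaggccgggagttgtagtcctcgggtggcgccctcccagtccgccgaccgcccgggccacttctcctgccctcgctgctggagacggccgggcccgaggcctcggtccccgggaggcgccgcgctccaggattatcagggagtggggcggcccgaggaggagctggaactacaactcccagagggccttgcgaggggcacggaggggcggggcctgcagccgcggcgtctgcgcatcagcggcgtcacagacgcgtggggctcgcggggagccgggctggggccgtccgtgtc

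None of these 6 windows holds CACGTG. The LINC00158 window has TATAAA, the LINC00511 window has TGGGAA once, and the windows of LINC01094, LINC02384, LINC00957 and LINC00235 hold none of the motifs searched. Their base composition spans a wide range, with 34.7% G or C in LINC00158, 43.7% in LINC01094, 47.7% in LINC02384, 64.7% in LINC00957, 75.3% in LINC00235 and 78.0% in LINC00511. Among members with a window, TGGGAA was in 8 of 32 that rose, in 10 of 37 that fell and in 8 of 25 that passed in neither direction.

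Most members were scarce. Their median mean level was 38.0 normalized counts against 266.1 over all 13765 genes tested, 37 members reached 100 and 48 lay under 20. LINC02397 alone held 11.2% of the summed level of all members, and the 10 highest held 35.3%. Below, ± after a mean is the SD over the 4 libraries of a group, and ± after a log2 change is its SE. Log2 changes are on the scale of normalized count plus 1, and so are counts of members or genes that changed at least 2-fold. Exon lengths ran from 434 to 27605 bp, so levels are compared between members per kb of exon. On that scale the median was 13.4 normalized counts per kb and the range 1.08 to 290.2.

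LINC01781 (ENSG00000234184, chr1:80535755-80646788) was the highest per kb at 290.2 normalized counts per kb, followed by LINC00996 at 146.8, LINC01215 at 143.4, LINC02397 at 122.4 and LINC00926 at 106.7. Normalized counts of LINC01781 in replicates 1 to 4 were 289.2, 281.9, 256.1 and 274.9 in high MYC controls and 282.8, 279.5, 281.9 and 244.3 with inhibitor at high MYC. At medium MYC they were 121.0, 147.3, 122.5 and 139.5 in controls and 145.6, 142.1, 138.9 and 144.2 with inhibitor. Every medium MYC library was below every high MYC library, and inhibitor and control overlapped at both levels. Its log2 change from high to medium MYC in controls was -1.05 ± 0.08 (SE; limma adjusted p = 2.98e-11).

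LINC02397 (ENSG00000205056, chr12:92466451-92492091) took the most reads of any member, with 1442.2 ± 25.7 normalized counts in high MYC controls and 1181.4 ± 58.5 in medium MYC controls (SD, n = 4 each). It fell by 0.29 on the log2 scale (SE 0.04; limma adjusted p = 1.93e-06). LINC00926 (ENSG00000247982, chr15:57300365-57307769), which starts downstream of the transcription factor gene TCF12, went the other way, from 322.4 ± 20.4 to 479.2 ± 37 normalized counts, 0.57 ± 0.06 on the log2 scale (SE; limma adjusted p = 3.47e-08). LINC00996 (ENSG00000242258, chr7:150433654-150448140), which lies 2490 bp from the immune GTPase gene GIMAP8, rose from 254.4 ± 15.8 to 398.8 ± 24.1 normalized counts. The abundant members thus moved in both directions, and each of these 4 changed by about 2-fold or less.

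The comparison of medium with high MYC among controls held the widest changes. The largest rises took RNAs from a few reads in a whole group to clear detection in every library, whereas the falls were smaller. Of the 150 members, 107 passed the test (71.3%), against 76.2% of all genes tested. Of these, 51 were higher at medium MYC and 56 lower, where 38.9% and 37.3% of all genes were. Changes of at least 2-fold among these numbered 33 up and 29 down, where 24.0% of all genes changed that much in either direction. On the same scale of normalized count plus 1, 10 members (6.67%) rose at least 16-fold, against 1.82% of all genes. On it 7 members (4.67%) fell at least 4-fold, against 2.01% of all genes. This scale understates the folds of scarce RNAs, and the ratios of summed reads given below are another measure. The median log2 change was -0.05 (0.02 over all genes), and the median size of change without sign was 0.78 (0.50 over all genes), with a median SE of 0.19 against 0.08. Groups did not overlap for 98 members (65.3%) and for 69.2% of all genes. A member could enter the list through 1 MYC level alone, so these counts describe the list and support nothing. In bulk RNA, fewer cells that hold a transcript and less of it per cell cannot be told apart.

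LINC01094 (ENSG00000251442, chr4:78645903-78682699, an intergenic RNA 35452 bp from the annexin gene ANXA3) rose most. High MYC controls had 0.753, 0, 1.1 and 0 normalized counts, and medium MYC controls had 256.6, 202.0, 226.7 and 216.6. It was thus all but undetected at high MYC and detected in every library at medium MYC. With inhibitor the values were 0, 1.11, 0 and 2.08 at high MYC and 223.7, 195.7, 206.8 and 243.0 at medium MYC. The high MYC controls held 2 reads in all, so the ratio of summed, scaled reads, 450.0-fold, has a 95% counting interval of 124.2 to 3720.8, which covers counting error only. The log2 change on the scale of normalized count plus 1 was 7.35 ± 0.32 (SE; limma adjusted p = 4.67e-15).

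LINC02154 (ENSG00000235385, chrX:13266048-13303452) and LINC02752 (ENSG00000254401, chr11:11020883-11183611) had the same form. LINC02154 read 0, 1.12, 0 and 0 in high MYC controls and 91.8, 81.3, 55.1 and 73 in medium MYC controls. With inhibitor it had no read in any high MYC library and 118.8, 130.1, 124.3 and 114.9 normalized counts at medium MYC, at least 39.7-fold higher when the high MYC group is set to 3 reads per library. All 4 inhibitor libraries at medium MYC thus lay above all 4 controls there, though that difference of 0.71 ± 0.28 on the log2 scale missed the threshold (limma adjusted p = 0.0625). LINC02752 read 0, 0, 1.1 and 0 against 55.3, 59.1, 72.6 and 62.4. Its nearest protein-coding gene, GALNT18, which encodes a transferase of protein glycosylation, is 87265 bp away and moved the other way, from 522.2 ± 14.3 to 73.1 ± 12.5 normalized counts (log2 change -2.83 ± 0.11, limma adjusted p = 1.40e-15).

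LINC02384 (ENSG00000251301, chr12:68332888-68451663) read 0.753, 2.25, 0 and 1.12 in high MYC controls and 60.5, 55.6, 51.6 and 57.4 in medium MYC controls. The ratio of summed reads was 56.4-fold, with a 95% counting interval of 21.8 to 208.7. It ends 507 bp from MDM1, a gene for a microtubule-binding centriole protein, which rose by 0.71 ± 0.06 on the log2 scale. LINC00511 (ENSG00000227036, chr17:72290091-72640472), an RNA studied in carcinomas, read 4.52, 4.49, 1.1 and 4.47 against 82.4, 89, 92.8 and 78.8, 4.32 ± 0.27 on the log2 scale (SE; limma adjusted p = 3.12e-12). The zinc transporter gene SLC39A11 lies 5477 bp from it on the same strand and had a log2 difference of -0.18 ± 0.11 that missed the threshold (limma adjusted p = 0.127).

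LINC00158 (ENSG00000185433, chr21:25385820-25431701) was detected at both MYC levels. Its normalized counts were 9.79, 15.7, 12.1 and 22.4 in high MYC controls and 377.6, 408.4, 364.9 and 437.4 in medium MYC controls, and 14, 18.9, 15.7 and 13.5 against 376.3, 402.3, 361.4 and 374.1 with inhibitor. The 2 MYC levels stood far apart, and within each level inhibitor and control libraries overlapped. The log2 change was 4.69 ± 0.17 in controls (SE; limma adjusted p = 1.73e-16) and 4.53 ± 0.17 with inhibitor (limma adjusted p = 3.01e-16). Its nearest protein-coding gene, MRPL39 of the mitochondrial ribosome, is 153955 bp away and changed by 0.18 ± 0.04.

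LINC01619 (ENSG00000257242, chr12:91984976-92142914) overlaps exons of BTG1 on the same strand, so reads of BTG1, an antiproliferative gene often mutated in B cell lymphoma, may have been counted for it. LINC01619 read 12.1, 19.1, 16.6 and 15.6 in high MYC controls and 427.7, 441.8, 432.3 and 448.9 in medium MYC controls, 4.72 ± 0.17 on the log2 scale (SE; limma adjusted p = 1.93e-16). BTG1 itself rose from 1634.7 ± 137.8 to 2832.5 ± 173.2 normalized counts (SD, n = 4), a log2 change of 0.79 ± 0.05. The change of the member was thus the larger on the log2 scale. LINC01160 (ENSG00000231346, chr1:111599655-111608723) lies inside the gene body of RAP1A, a small GTPase, on the opposite strand. It read 1.51, 2.25, 3.31 and 3.35 against 30.2, 48.8, 23.6 and 30.4 (log2 change 3.24 ± 0.33), while RAP1A rose by 1.17 ± 0.08.

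Among the members that fell, LINC01238 under the identifier ENSG00000261186 (chr2:242087351-242088457) was lowest in relative terms of those with a mean of at least 20. Its normalized counts were 24.1, 15.7, 14.3 and 15.6 in high MYC controls and 4.17, 3.42, 2.63 and 2.46 in medium MYC controls, with no overlap. The log2 change was -2.14 ± 0.25 (SE; limma adjusted p = 9.50e-08). LINC01976 (ENSG00000261514, chr17:43938363-43938959), named after its values were seen because its mean of 18.8 lay under that limit, fell further. It read 29.4, 35.9, 29.8 and 31.3 in high MYC controls and 0, 2.57, 2.63 and 3.28 in medium MYC controls, -3.57 ± 0.37 on the log2 scale (SE; limma adjusted p = 1.22e-08). It is also the shortest member, with 434 bp of exon, and holds an E-box in its promoter window.

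LINC00957 (ENSG00000235314, chr7:44039171-44042306) read 46.7, 47.2, 56.3 and 53.6 in high MYC controls and 13.6, 9.42, 12.3 and 9.85 in medium MYC controls, -2.09 ± 0.27 on the log2 scale (SE; limma adjusted p = 4.91e-07). DBNL, an actin-binding adaptor 2334 bp downstream on the same strand, moved the other way by 0.60 ± 0.04. LINC02693 (ENSG00000212719, chr17:21428381-21574517), one of the entries typed as protein-coding, read 34.6, 32.6, 45.3 and 50.3 against 9.39, 8.56, 10.5 and 6.57, a log2 change of -2.09 ± 0.23 (limma adjusted p = 2.82e-08). KCNJ12, a potassium channel gene 8509 bp away on the opposite strand, fell from 173.0 ± 13.5 to 9.06 ± 4.81 normalized counts, a log2 change of -4.27 ± 0.27. LINC01311 (ENSG00000260924, chr22:19171395-19172839) went from 66.4 ± 5.19 to 15.7 ± 3.76 normalized counts, and LINC00698 (ENSG00000244342, chr3:62950430-63125062) from 40.3 ± 9.8 to 11.6 ± 2.63.

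LINC00665 (ENSG00000232677, chr19:36313067-36331718) had the most reads of the members named for a fall. Its normalized counts were 487.3, 408.8, 424.9 and 395.6 in high MYC controls and 155.4, 137.0, 161.9 and 160.8 in medium MYC controls. The groups stood apart by more than the spread within either, and the log2 change was -1.47 ± 0.08 (SE; limma adjusted p = 9.26e-14). ZFP14, a zinc finger gene 2735 bp away, had a log2 difference of -0.05 ± 0.13 (limma adjusted p = 0.72). LINC01480 (ENSG00000270164, chr19:41535183-41536904) fell by 1.49 ± 0.12 on the log2 scale. LINC00235 (ENSG00000277142, chr16:525155-527407) starts 310 bp from CAPN15, a calpain-family gene read in the opposite direction. Both fell, LINC00235 from 72.2 ± 11.2 to 26.5 ± 6.22 normalized counts and CAPN15 from 1319.9 ± 80.1 to 564.3 ± 76.2, with log2 changes of -1.43 ± 0.16 and -1.23 ± 0.07.

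**Figure D1:**
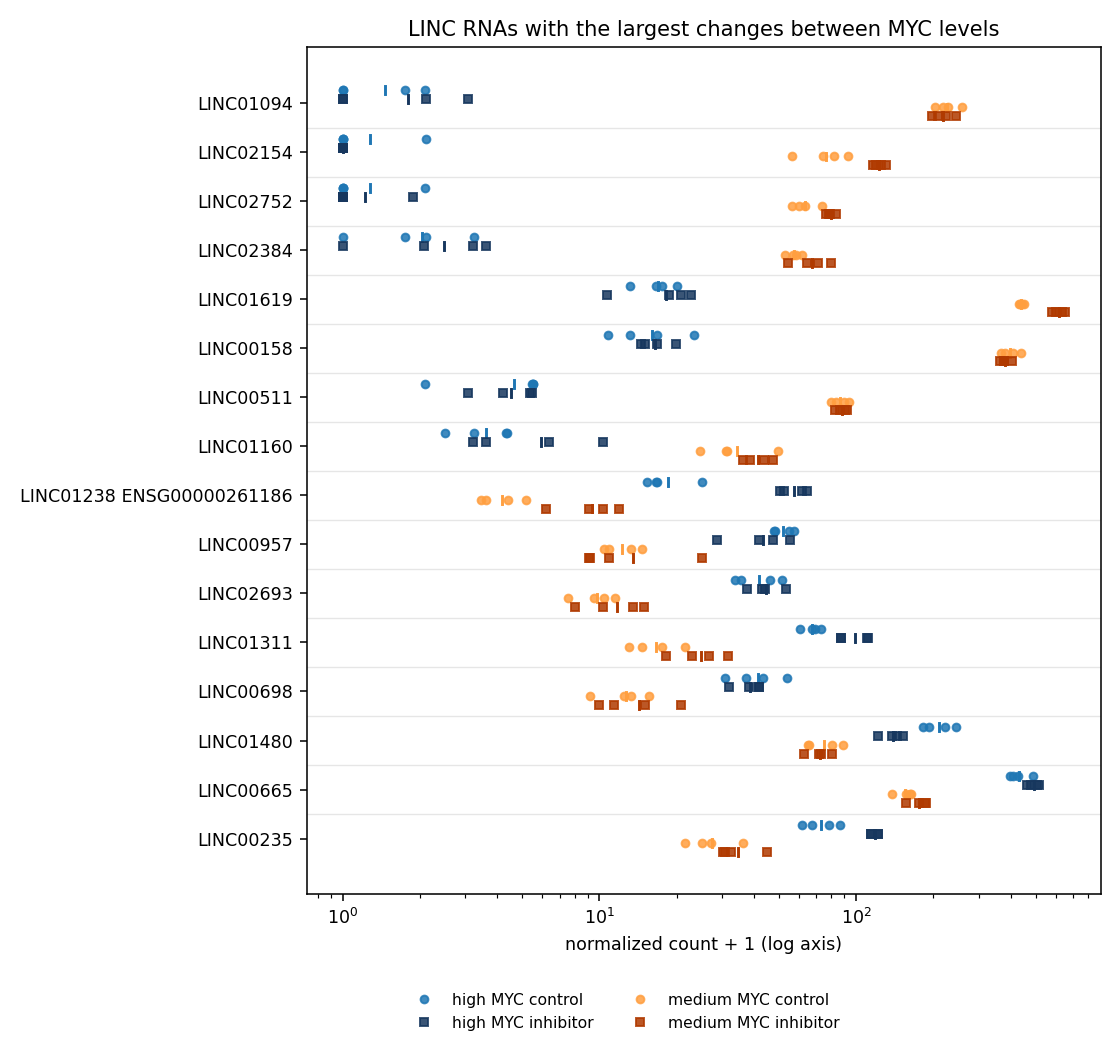
Normalized counts plus 1 (log axis) in each of the 16 libraries for the 16 LINC RNAs named for the change between MYC levels; circles are controls, squares are inhibitor libraries, blue is high MYC, orange is medium MYC, and short bars are means. The upper 8 rows lie to the right at medium MYC and the lower 8 to the left, with LINC01094 going from at most 1.1 to at least 202.0 normalized counts in controls.

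The same comparison among the inhibitor libraries uses 8 other libraries. There 115 members passed (76.7%), against 77.5% of all genes tested, 57 higher and 58 lower. Of these, 34 rose and 23 fell at least 2-fold, where 25.2% of all genes changed that much, and groups did not overlap for 111 members, against 72.6% of all genes. Of the members, 101 passed in both comparisons, which is 94.4% of the control list and 87.8% of the inhibitor list, and all 101 had the same direction, 50 higher and 51 lower. That is 67.3% of the members, and 68.9% of all genes tested passed in both with the same direction and 0.523% with opposite ones. The sign was shared by 139 of the 150, and by 90.9% of all genes tested. LINC01094 changed by 7.09 ± 0.32, LINC02154 by 6.94 ± 0.28 and LINC01619 by 5.13 ± 0.17 on the log2 scale with inhibitor. LINC00511 had 4.32 in both. Among those that fell, LINC01238 (ENSG00000261186) changed by -2.64 ± 0.25 and LINC00665 by -1.48 ± 0.08.

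**Figure D2:**
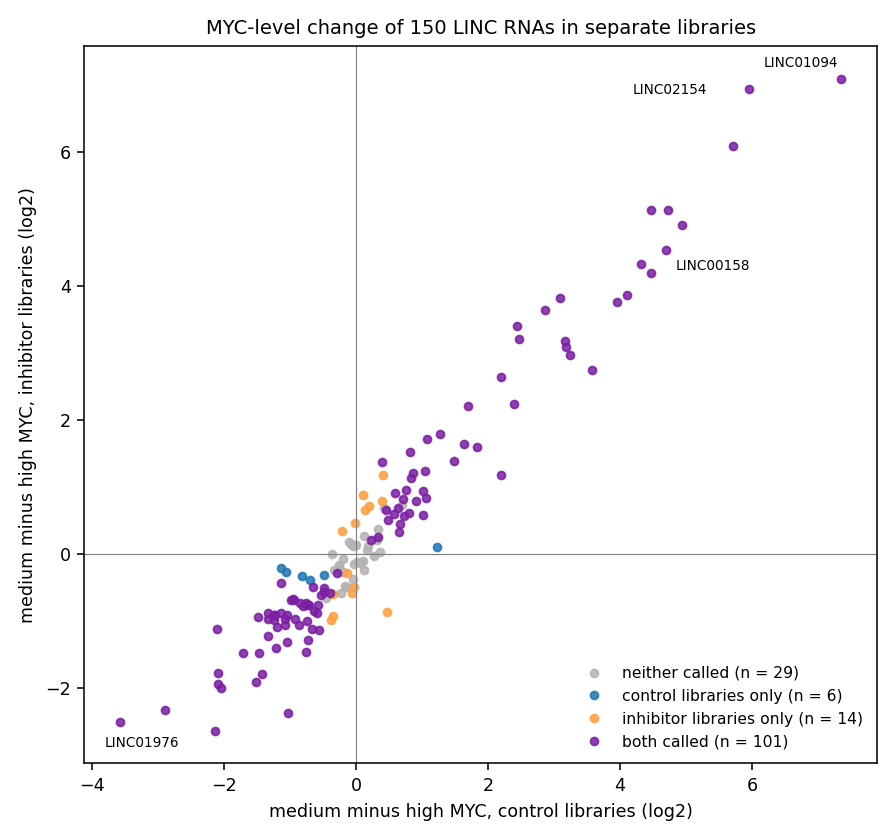
Log2 change from high to medium MYC for the 150 members, in control libraries (horizontal axis) and in inhibitor libraries (vertical axis); colours give the comparisons in which a member passed the test. The 101 members that passed in both lie in the upper right or lower left, and no such member lies in the other corners.

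The share that passed was higher among members with more reads, as it was over all genes. Of the 37 with a mean of at least 100, 83.8% passed between MYC levels in controls, against 81.9% of all genes at that level. For 65 members with a mean from 20 to 100 the shares were 70.8% and 67.4%, and for 48 under 20 they were 62.5% and 53.3%. The size of change also depended on level. Its median without sign in these classes, in the same order, was 0.74, 0.73 and 1.04 for members and 0.44, 0.67 and 0.75 for all genes. The 89 members without any overlap passed in 77.5%, with 32 higher and 37 lower, and the 61 others in 62.3%, with 19 in each direction. No test of that difference was made.

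Neighbouring protein-coding genes could be tested for 106 members. In 65 of these pairs both genes passed between MYC levels in controls, and in 43 of the 65 (66.2%) they moved the same way. Among pairs of neighbouring protein-coding genes it was 57.7%. For all members within 10 kb of the neighbour, 24 of 34 pairs moved the same way (70.6%), against 58.4% of protein-coding pairs within 10 kb. For those of them without exon overlap it was 19 of 23 (82.6%). The protein-coding pairs and the members farther away were not filtered for exon overlap. For members over 10 kb away it was 19 of 31 (61.3%). Few pairs had both genes called for the inhibitor. For members within 10 kb and without exon overlap, 2 of 5 pairs moved the same way at high MYC (40.0%) and 1 of 3 at medium MYC (33.3%), against 74.0% and 68.6% of protein-coding pairs within 10 kb. These shares are descriptions, and LINC02752 with GALNT18 and LINC00957 with DBNL show pairs that moved apart.

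**Figure D3:**
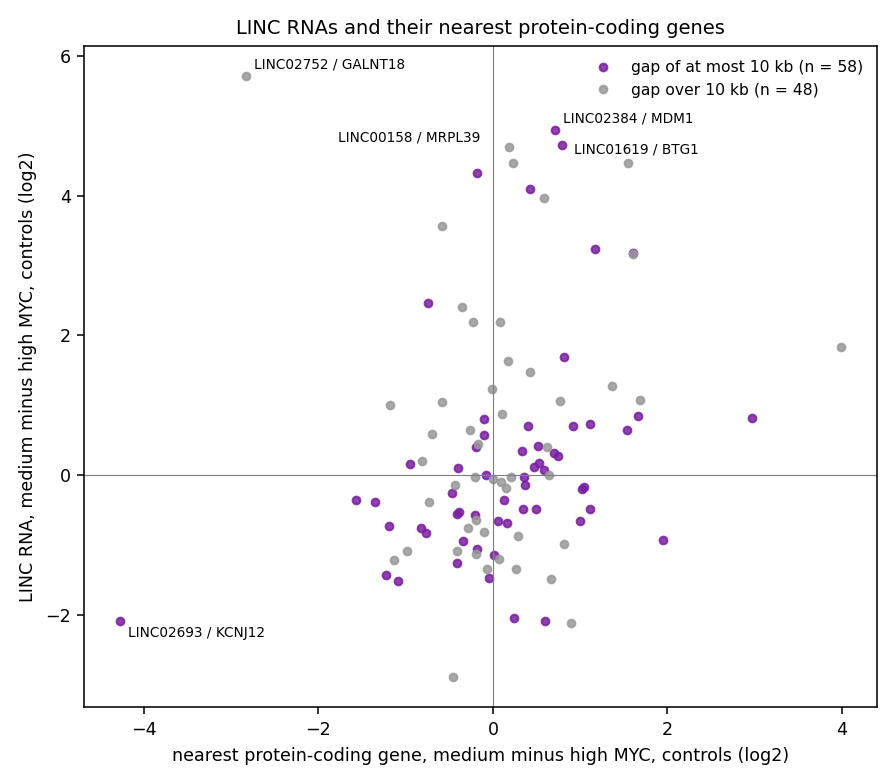
Log2 change from high to medium MYC in controls of each member (vertical axis) against that of its nearest protein-coding gene (horizontal axis), for the 106 pairs in which the neighbour was tested; purple marks gaps of at most 10 kb and grey wider gaps. LINC02693 and KCNJ12 lie together at the lower left, and LINC02752 and GALNT18 lie apart at the upper left.

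The inhibitor moved fewer members, and by less. At high MYC 28 of the 150 passed (18.7%), against 26.8% of all genes tested, with 18 higher and 10 lower where 10.5% and 16.3% of all genes were. Groups did not overlap for 29 members (19.3%) and for 26.7% of all genes. Of the 37 members with a mean of at least 100, 10 passed, and 31.4% of all genes at that level. Between 20 and 100 it was 13 of 65 against 18.2%, and under 20 it was 5 of 48 against 12.1%. The members' median log2 change was 0.03 (-0.02 over all genes). Among those that passed, 4 rose at least 2-fold and none fell that far, where 1.56% of all genes changed that much in either direction.

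LINC01238 (ENSG00000261186) rose most with the inhibitor at high MYC, from 24.1, 15.7, 14.3 and 15.6 normalized counts in controls to 49.5, 63.2, 51.5 and 60.3. All inhibitor libraries were above all controls, and the log2 change was 1.65 ± 0.25 (SE; limma adjusted p = 3.54e-05). It is typed as antisense and starts 176 bp from LINC01881, read in the opposite direction. The other entry of this symbol, ENSG00000237940, did not rise. At high MYC that entry read 72.3, 95.5, 86.1 and 97.2 in controls and 78.5, 76.5, 48 and 61.3 with inhibitor. Its log2 differences of -0.42 at high and -0.10 at medium MYC did not pass. The others that rose at least 2-fold, LINC00501, LINC01857 and LINC00663, each had a mean under 20 and were named after their values were seen. For LINC01857 the groups overlapped, with 5 reads in all controls at high MYC and 16 with inhibitor. LINC00501 (ENSG00000203645, chr3:177294442-177323418) read 4.52, 2.25, 5.52 and 8.94 in controls and 24.7, 14.4, 9.6 and 14.6 with inhibitor, a log2 change of 1.45 ± 0.34 (limma adjusted p = 0.00248).

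Several of the other members that rose lie head to head with a coding gene. LINC01126 (ENSG00000279873, chr2:43227210-43228855) starts 601 bp from ZFP36L2, a gene for an RNA-binding protein of mRNA decay. It went from 49, 57.3, 38.6 and 39.1 normalized counts to 95.7, 83.2, 69.8 and 78, 0.82 ± 0.18 on the log2 scale (SE; limma adjusted p = 0.00163). ZFP36L2 rose by 0.24 ± 0.06. LINC00235 rose from 72.2 ± 11.2 to 117.0 ± 4.22 (log2 change 0.70 ± 0.16, limma adjusted p = 0.00281), whereas its partner CAPN15 had a log2 difference of -0.01 ± 0.07 (limma adjusted p = 0.928). LINC01521 (ENSG00000213888, chr22:31346777-31348719) starts 545 bp from PATZ1, a zinc finger transcription factor gene. It went from 27.3 ± 6.64 to 42.5 ± 3.22 normalized counts (log2 change 0.65 ± 0.20, limma adjusted p = 0.017), and PATZ1 fell by 0.12 ± 0.04. The call for LINC01521 was lost without replicate 1 or 4 of the controls (limma adjusted p = 0.0535 and 0.0665). LINC00115 (ENSG00000225880, chr1:826206-827522) shares exon bases with LINC01128 on the other strand, and rose from 36.5 ± 2.49 to 60.4 ± 10.8, a log2 change of 0.70 ± 0.17.

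LINC03040 (ENSG00000181577, chr6:44000580-44005958) fell most among the members named at high MYC, and it is the second entry typed as protein-coding. Its normalized counts were 95.7, 85.4, 64 and 72.6 in controls and 40.9, 55.5, 37.5 and 50.9 with inhibitor, without overlap. The log2 change was -0.77 ± 0.12 (SE; limma adjusted p = 5.18e-05). LINC00877 (ENSG00000241163, chr3:72035300-72279503) went from 58.6 ± 3.27 to 36.3 ± 7.13 (log2 change -0.69 ± 0.12, limma adjusted p = 0.000139). LINC02642 (ENSG00000232591, chr10:7445558-7471942) went from 49.1 ± 2.59 to 30.8 ± 4.1, a log2 change of -0.67 ± 0.19.

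LINC02909 (ENSG00000226397, chr12:24993424-25006403) lies within the body of IRAG2, a lymphocyte gene for an endoplasmic reticulum membrane protein, on the opposite strand. It read 23.3, 18, 40.8 and 30.2 in controls and 17.2, 16.6, 13.1 and 16.6 with inhibitor, -0.73 ± 0.24 on the log2 scale (SE; limma adjusted p = 0.0312). IRAG2 fell by 0.57 ± 0.04 at high MYC. The call for LINC02909 was lost without replicate 3 or 4 of the controls or replicate 3 of the inhibitor libraries, with limma adjusted p from 0.0749 to 0.119. It was also lost with no filter on low values or with the 2 groups fitted alone (0.0771 and 0.0517).

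At medium MYC 17 of the 150 members passed with the inhibitor (11.3%), against 26.3% of all genes tested, 11 higher and 6 lower where 11.7% and 14.6% of all genes were. This count was 9 without replicate 1 of the controls, 11 without replicate 4 of the controls, 11 without replicate 2 and 10 without replicate 3 of the inhibitor libraries. It was 8 with no filter on low values and 11 with DESeq2 on recovered reads, and 21 with edgeR on those reads. Groups did not overlap for 24 members and for 27.9% of all genes. Of members with a mean of at least 100, 18.9% passed, and 33.0% of all genes at that level. Between 20 and 100 it was 10.8% against 12.9%, and under 20 it was 6.25% against 6.12%. Changes of at least 2-fold were found for 3 members, against 0.886% of all genes. These were LINC01238 (ENSG00000261186), LINC01976 and LINC02863. LINC01976 rose by 1.23 ± 0.37 on the log2 scale (limma adjusted p = 0.0153), from 0, 2.57, 2.63 and 3.28 normalized counts to 4.66, 2.98, 8.36 and 7.06. These groups overlapped and held few reads. LINC02863 fell by 1.11 ± 0.36 on the log2 scale (limma adjusted p = 0.0258), from 14.4 ± 1.58 to 7.07 ± 4.09 normalized counts. LINC01976 and LINC02863 have means under 20 and were named after their values were seen. The responses at the 2 MYC levels come from separate libraries. Of the members, 7 passed at both, which is 25.0% of the high MYC list and 41.2% of the medium MYC list, with 6 higher and 1 lower at both. That is 4.67% of the members, whereas 13.1% of all genes tested passed at both with the same direction and 0.458% with opposite ones. The sign was shared by 98 of the 150, and by 69.5% of all genes tested.

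The 6 that rose at both levels were LINC01238 (ENSG00000261186), LINC01881, LINC00938, LINC01311, LINC00641 and LINC00663, and LINC03040 fell at both. LINC00938 (ENSG00000273015, chr12:45718046-45727775) had the most reads of them. Its normalized counts went from 225.2, 269.5, 278.1 and 270.5 to 382.8, 411.5, 385.7 and 416.8 at high MYC, and from 210.7, 156.7, 155.8 and 200.2 to 254.0, 243.4, 285.1 and 255.1 at medium MYC. All inhibitor libraries lay above their controls, with log2 changes of 0.62 ± 0.09 and 0.53 ± 0.09 (limma adjusted p = 2.98e-05 and 0.000146). ARID2, a gene for a chromatin remodelling subunit that starts 1890 bp from LINC00938 in the opposite direction, had log2 differences of 0.00 ± 0.04 and 0.04 ± 0.04 (limma adjusted p = 0.998 and 0.517).

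LINC01238 (ENSG00000261186) went from 4.17, 3.42, 2.63 and 2.46 normalized counts to 9.32, 10.9, 5.22 and 8.07 at medium MYC, 1.15 ± 0.25 on the log2 scale (SE; limma adjusted p = 0.00139). Its divergent partner LINC01881 (ENSG00000220804, chr2:242088633-242160153), a transcribed pseudogene, went from 41.3 ± 6.72 to 63.8 ± 4.21 at medium MYC and from 92.2 ± 10.7 to 118.3 ± 11.9 at high MYC. The changes were 0.63 ± 0.12 and 0.36 ± 0.12 on the log2 scale. Both partners were also lower at medium than at high MYC, LINC01881 by a log2 change of -1.14 ± 0.12 in controls. LINC03040 went from 418.3, 424.6, 431.4 and 402.1 normalized counts to 210.9, 212.6, 209.9 and 237.0, with a gap between the groups far wider than the spread within them. Its log2 change was -0.94 ± 0.12 (SE; limma adjusted p = 3.55e-06), and it was higher at medium than at high MYC in controls by 2.40 ± 0.12. LINC01311, whose neighbour SLC25A1 encodes the mitochondrial citrate carrier, rose by 0.57 ± 0.18 at medium and 0.54 ± 0.18 at high MYC, while SLC25A1 fell by 0.43 ± 0.05 and 0.38 ± 0.05.

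The other members named for a fall at medium MYC changed by little. LINC02982 (ENSG00000215246, chr5:987180-997308) went from 42.7 ± 2.42 to 29.8 ± 6.67 normalized counts, LINC00623 (ENSG00000226067, chr1:120913275-121009291) from 52.9 ± 6.25 to 36.6 ± 5.69 and LINC02985 (ENSG00000256546, chr12:122063306-122068616) from 39 ± 3.81 to 27.5 ± 7.11, with log2 changes from -0.53 to -0.52. LINC00996 went from 398.8 ± 24.1 to 344.8 ± 19.1, a log2 change of -0.21 ± 0.07 (limma adjusted p = 0.0421). Each of these 4 calls was lost when some single library was left out. For LINC02982 it was replicate 3 of the inhibitor libraries (limma adjusted p = 0.072). For LINC00623 it was replicate 1 or 4 of the controls or replicate 3 of the inhibitor libraries (0.0638 to 0.0916). For LINC02985 it was replicate 1 or 4 of the controls or replicate 2 or 4 of the inhibitor libraries (0.0627 to 0.129). For LINC00996 it was replicate 2 or 4 of the controls or replicate 1, 2 or 3 of the inhibitor libraries (0.0663 to 0.135). LINC02985 lies 1262 bp from BCL7A, a gene for a chromatin remodelling subunit, which rose by 0.33 ± 0.04.

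**Figure D4:**
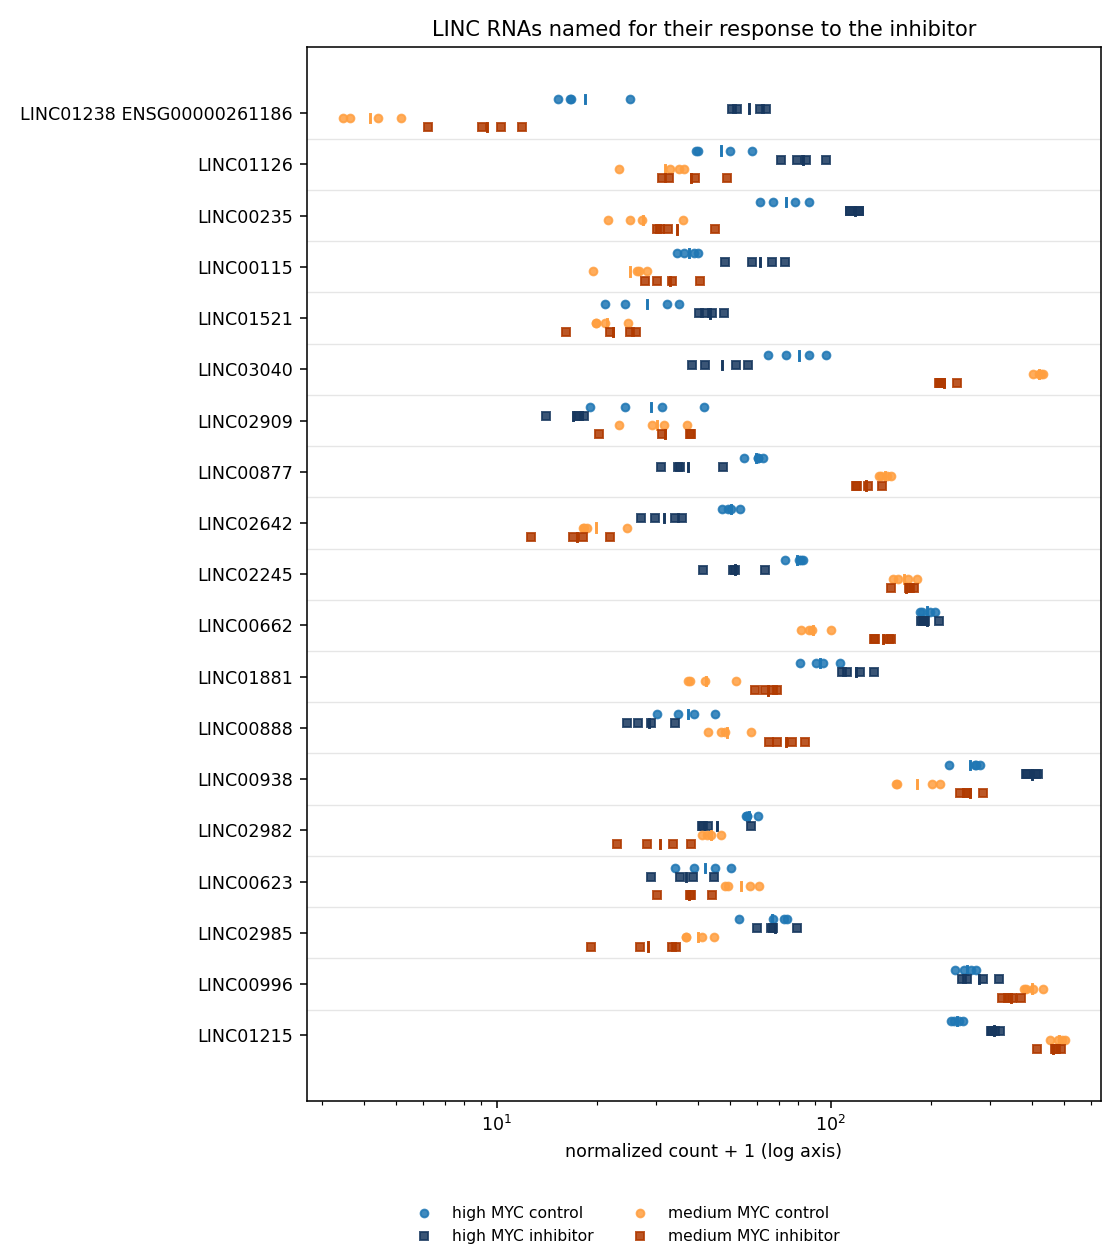
Normalized counts plus 1 (log axis) in each of the 16 libraries for the LINC RNAs named for their response to the inhibitor; circles are controls, squares are inhibitor libraries, blue is high MYC, orange is medium MYC, and short bars are means. Squares lie right of circles at both MYC levels for LINC01238 (ENSG00000261186) and LINC00938 and left of them for LINC03040. LINC00662 moves at medium MYC, from 80.4 to 99.3 in controls to 134.0 to 151.0 with inhibitor.

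For 4 members (2.67%) the test of the difference between the 2 responses passed, against 8.63% of all genes tested. With a pseudocount of 10 in place of 1 the count was 8. At high MYC the response was the higher for 1 member and the lower for 3, where 3.31% and 5.33% of all genes were. Of members with a mean of at least 100, 8.11% passed this test, and 11.1% of all genes at that level. Between 20 and 100 it was 1.54% against 3.26%, and under 20 it was 0.0% against 2.14%. The difference is the log2 change at high MYC minus that at medium MYC. LINC01215 (ENSG00000271856, chr3:108125821-108138610) read 227.5, 233.6, 247.2 and 241.4 in high MYC controls and 303.3, 308.4, 301.9 and 319.1 with inhibitor, and all inhibitor libraries were above all controls. At medium MYC it read 501.7, 492.3, 452.5 and 476.8 in controls and 487.0, 471.9, 469.0 and 414.4 with inhibitor, and the groups overlapped. The log2 change was 0.38 ± 0.06 at high MYC and -0.06 ± 0.06 at medium MYC, and the difference was 0.44 ± 0.08 (SE; limma adjusted p = 0.000741).

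LINC00662 (ENSG00000261824, chr19:27684580-27793940) had the opposite form. It read 183.8, 204.4, 186.5 and 197.8 in high MYC controls and 209.7, 187.5, 191.1 and 185.0 with inhibitor, and the groups overlapped. At medium MYC it rose from 86.6, 99.3, 84.9 and 80.4 to 134.0, 151.0, 134.7 and 148.2, without overlap. The log2 change was 0.00 ± 0.08 at high MYC and 0.69 ± 0.08 at medium MYC, and the difference was -0.69 ± 0.12 (SE; limma adjusted p = 0.000369). LINC02987, whose exons it overlaps on the other strand, had log2 differences of 0.39 at high MYC and 0.18 at medium MYC.

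LINC00888 (ENSG00000240024, chr3:183447608-183456013), a transcribed pseudogene, read 33.9, 29.2, 44.1 and 38 in high MYC controls and 28, 25.5, 23.6 and 33.3 with inhibitor. At medium MYC it read 45.9, 47.1, 42 and 56.6 in controls and 82.7, 75.5, 67.9 and 64.5 with inhibitor. The rise at medium MYC passed (0.59 ± 0.16, limma adjusted p = 0.0069), the difference of -0.38 ± 0.16 at high MYC did not (limma adjusted p = 0.079), and the responses differed by -0.97 ± 0.22 (limma adjusted p = 0.00651). LINC02245 (ENSG00000237638, chr2:64901840-64905137) read 79.1, 71.9, 80.6 and 81.6 in high MYC controls and 62.4, 49.9, 50.6 and 40.5 with inhibitor. At medium MYC it read 158.5, 180.6, 168.9 and 152.6 in controls and 171.3, 151.0, 170.2 and 176.5 with inhibitor. It fell at high MYC by 0.63 ± 0.11 on the log2 scale, and the difference between levels was -0.64 ± 0.16 (SE; limma adjusted p = 0.0105). Its nearest protein-coding gene, SLC1A4, a neutral amino acid transporter 83340 bp away, fell from 551.4 ± 20.3 to 386.0 ± 20.8 normalized counts at high MYC and differed between levels by -0.42 ± 0.06 (limma adjusted p = 3.37e-05). Control libraries enter both the inhibitor and the MYC comparisons, so a value from one is no independent support for the other.

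**Figure D5:**
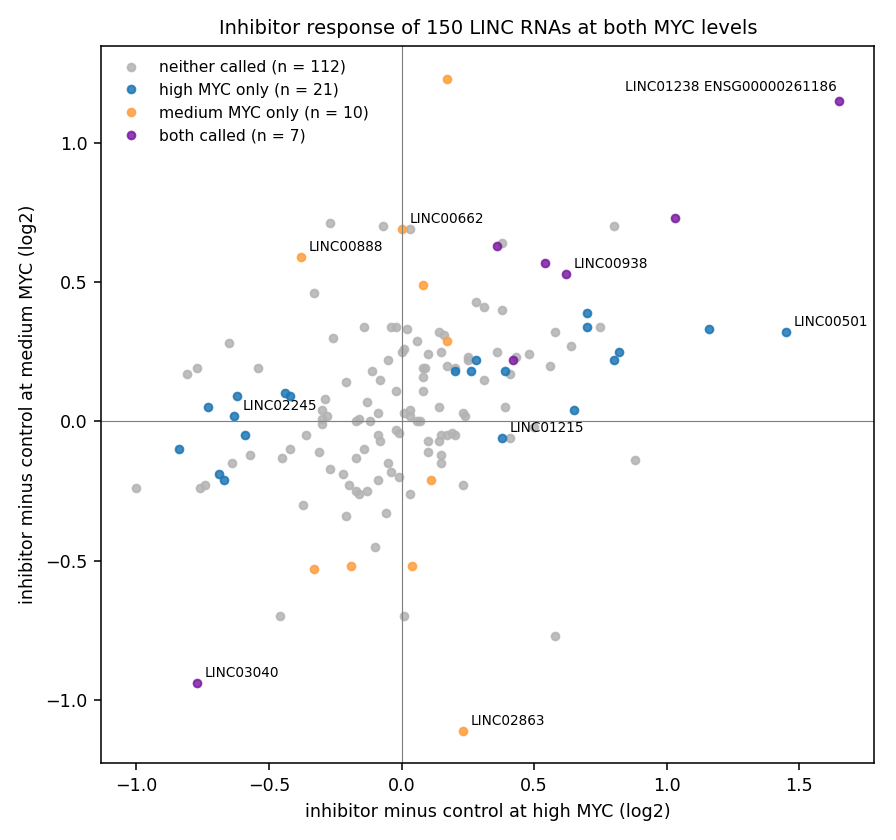
Log2 change with inhibitor for the 150 members at high MYC (horizontal axis) and medium MYC (vertical axis); colours give the MYC levels at which a member passed the test. The 7 that passed at both lie in the upper right, except LINC03040 at the lower left.

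No comparison called 26 of the members, 11 of them with a mean under 20. Among the abundant ones, LINC02210, LINC01278, LINC00294 and LINC00174 had means of 212.0, 143.9, 133.8 and 101.1 normalized counts, and were named after their values were seen. Their largest log2 difference in any of the 5 comparisons was 0.23, 0.16, 0.18 and 0.20, respectively. The 5 pairs of members within 1 kb of each other did not all move alike. LINC00526 had a log2 difference of -0.04 and LINC00667, which starts 772 bp away on the other strand, 0.67 between MYC levels in controls.

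Other noncoding RNA lists from the same fit are set beside the members. Over all genes, 38.9% rose and 37.3% fell between MYC levels in controls, 10.5% rose and 16.3% fell with the inhibitor at high MYC, and 11.7% rose and 14.6% fell with it at medium MYC. Of 26 small nucleolar RNA host genes tested, 25 fell from high to medium MYC in controls and none rose, and 18 rose with the inhibitor at high MYC and 19 at medium MYC, with none lower. SNHG1, which carries several small nucleolar RNAs in its introns, went from 1847.4 ± 59.3 to 857.4 ± 33.5 normalized counts between MYC levels. Of 159 divergent transcripts, 66 rose with the inhibitor at high MYC and 3 fell, and 24 rose and 2 fell at medium MYC. Of 270 antisense RNAs, 48 rose and 18 fell at high MYC, and 24 rose and 18 fell at medium MYC. Of 76 genes that once had a LINC symbol, a list that includes some protein-coding genes, 19 rose and 1 fell at high MYC, and 15 rose and 2 fell at medium MYC. This list shares genes with the others, so it is not a separate class. Its genes that rose at high MYC include SNHG1, SNHG5, SNHG8, SNHG10, SNHG11 and SNHG12, also counted as small nucleolar RNA hosts. They also include the microRNA hosts MIR17HG and MIR4453HG, the divergent BTG2-DT and RNF32-DT and the antisense ZNF407-AS1. Of 25 microRNA hosts, 13 rose and 6 fell between MYC levels in controls. Among them, MIR155HG went from 170.6 ± 27.6 to 2525.2 ± 367.6 normalized counts between MYC levels in controls, and MIR17HG, host of a cluster that MYC is known to activate, from 438.2 ± 103.5 to 70.4 ± 12.6.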

How the data were processed

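RNA was sequenced from 16 P493-6 libraries in 4 groups of 4. The deposited values are normalized counts, a signal that the authors obtained with STAR 2.5.2a, RSEM 1.2.31 and DESeq2 1.16.1 on GRCh38, per the submitters' processing notes. The gene annotation, strand use and filters are not given in the sources used here. Every value was a whole multiple of its library's step to within 0.01 read, for 100.0% of values. The multiples are called reads here, and their sum is the depth assigned to genes (8755296 to 13858534 per library). Whether the authors rounded estimated counts to reach them is not given in the sources used here. At this depth a group at 0 is set to 3 reads per library, and intervals (95%) cover counting error only.

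Symbols came from a gene name table (56948 of 58051 identifiers matched) and positions from GENCODE release 29, matched by identifier. Tests used limma 3.58.1 (R 4.3.3) on log2(value + 1) for 13765 genes with a mean of at least 10, with a mean trend, all 16 libraries in 1 fit with 4 group means, two-sided, and Benjamini-Hochberg adjustment over all genes; calls are at an adjusted p under 0.05. A log2 change on this scale understates the change of low genes. The fit was tested on simulated data. Members, gene lists and tests were chosen with earlier results of these data known.

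Named members follow a rule: the 5 highest per kb of exon; up to 8 higher and 8 lower between MYC levels in controls; up to 5 in each direction for the inhibitor comparisons and for the difference in response. They had to pass the test with a mean of at least 20 and, except for the difference, groups without overlap; members named otherwise are marked. Former LINC symbols came from RefSeq synonyms. Alternatives were equal library totals, quantile normalization, pseudocounts of 0.1 and 10, no filter, a mean of at least 20, no trend, the compared groups alone, a replicate block, edgeR 4.0.16 and DESeq2 1.42.0 on recovered reads, and each library left out. One marker gene of another cell type is not reported here.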

Additional observations from a re-analysis of the deposited data

Results flagged for a closer look

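In 144 groups of 4 libraries (36 named members in 4 groups each), 1 library stood apart from the other 3 in 14 cases by Dixon's criterion at the 95% level, which chance meets in about 1 of 20 groups. At low levels this was a single read or a few: LINC02154 in high MYC control replicate 2 (1.12 normalized counts, 0 in the others), LINC02752 in high MYC control replicate 3 (1.1, 0 in the others) and in high MYC inhibitor replicate 3 (0.873, 0 in the others), and LINC00511 in high MYC control replicate 3 (1.1, others from 4.47 to 4.52).

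At high MYC, LINC01238 (ENSG00000261186) stood out in control replicate 1 (24.1, others from 14.3 to 15.7), LINC00938 in control replicate 1 (225.2, others from 269.5 to 278.1) and LINC02982 in control replicate 2 (59.5, others from 54.8 to 55.2). LINC02982 did so in inhibitor replicate 2 too (56.6, others from 40.1 to 41.9). LINC02909 was low in inhibitor replicate 3 (13.1, others from 16.6 to 17.2) and LINC01781 in inhibitor replicate 4 (244.3, others from 279.5 to 282.8).

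At medium MYC, LINC02642 stood out in control replicate 3 (23.6, others from 17.1 to 17.7) and LINC03040 in inhibitor replicate 4 (237.0, others from 209.9 to 212.6). LINC00957 and LINC00235 were both high in inhibitor replicate 3, at 24 (others from 8.07 to 9.93) and 43.9 (others from 29.2 to 31.5).

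The response to the inhibitor at high minus medium MYC differed from 0 by limma's interaction test for LINC01215 (0.44, adjusted p = 0.000741), LINC00662 (-0.69, adjusted p = 0.000369), LINC02245 (-0.64, adjusted p = 0.0105) and LINC00888 (-0.97, adjusted p = 0.00651).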

How the results depend on the processing

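Under the alternatives other than leaving out a library, the members called numbered 22 to 31 for the inhibitor at high MYC, 8 to 21 at medium MYC, 4 to 8 for the difference in response, 77 to 114 between MYC levels in controls and 82 to 121 with inhibitor; the values of 77 and 82 come from a filter at a mean of 20, which tests fewer members (102 of 150). At medium MYC the inhibitor count of 17 became 8 with no filter and 11 with DESeq2, and the count of 4 for the difference became 8 with a pseudocount of 10; the cause was not tested. Leaving out 1 library at a time gave 21 to 28, 9 to 16, 4 to 6, 103 to 108 and 109 to 114, in the same order; the 9 came without medium MYC control replicate 1. No named result changed direction. Of 788 values over 40 named results, 30 over 6 results missed the threshold, all in the inhibitor comparisons (LINC01521, LINC02909, LINC02982, LINC00623, LINC02985 and LINC00996). Other scalings moved the median log2 change of all genes by less than 0.1. The replicate numbers did not pair the libraries: same-numbered libraries correlated at -0.154 to 0.239, and no comparison had every library correlate best with its own number. With a replicate block the counts were 27, 16, 6, 107 and 115. Members under a mean of 20 had a median SE of 0.32 on the log2 scale, so small changes were not detectable there.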
